A study of Mus musculus with 13 samples.

Results

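The immediate-early and heat shock response genes were followed in 6 leukocyte populations of the mouse spleen. The set is a list of 36 genes, given by name with no threshold on signal, out of 18194 genes that had a probe set annotated to 1 gene only. Where a gene had several such probe sets, the one with the highest mean signal was used. All 36 passed the filter on low signals and were among the 9380 genes tested. The set was read array by array as well as by population, because genes of this kind also respond to the isolation of cells.

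The study compared antigen-presenting dendritic cells (DC) with lymphocytes by genome-wide expression arrays, and 13 arrays are described here. The DC were CD8α conventional DC (CD8α cDC), CD11b conventional DC (CD11b cDC) and plasmacytoid DC (pDC), with 2 arrays each. The lymphocytes were natural killer (NK) cells on 2 arrays, B cells on 3 arrays and CD8 T cells on 2 arrays. All cells came from spleens of wild-type C57BL/6 mice, and spleens were digested with collagenase before magnetic separation and flow sorting. By surface phenotype, pDC were Lin-CD11c+120G8high, CD8α cDC and CD11b cDC were Lin-CD11chigh cells with low or no 120G8 staining that carried CD8α or CD11b, and NK cells were NK1.1+TCRβ-. Of the 3 B cell arrays, 2 were labelled as follicular B cells. An age was labelled on 5 arrays, as 6 to 8 weeks for CD8α cDC replicate 1 and both CD8 T cell arrays and as 6 weeks for B cell replicates 2 and 3. RNA was pooled from 10 to 15 mice for each DC array and from 6 to 10 mice for each NK cell array. B cell replicate 1 pooled 3 mice, replicate 2 pooled 2 mice and replicate 3 came from 1 mouse, as did each CD8 T cell array. DC and NK cell duplicates came from a pair of independent sorts, and those of B and CD8 T cells from further ones.

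Immediate-early genes are transcribed within minutes of a stimulus, without new protein synthesis, mostly through MAP kinases acting on serum response factor with its Elk partners and on CREB. Their products are transcription factors (the AP-1, EGR, NR4A and KLF families, Myc) and feedback regulators that shut the response down, such as the dual-specificity phosphatases and the RNA-destabilising protein Zfp36. Heat shock genes are driven by heat shock factor 1, which binds pairs of inverted GAA units upstream of their start sites, and encode chaperones that bind unfolded protein. In spleen cells both programmes are known for responding to tissue digestion and sorting as well as to signals that the cells receive in the animal.

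Stretches before the transcription start are shown for genes on which the comparisons below turn. They are 200 bases each, 5′ to 3′ on the gene's strand, from the RefSeq promoter windows of build GRCm38.p6. These windows were given for 29 of the 36 members. Capitals mark the heat shock unit GAANNTTC in Hspa1a, Hspa1b and Hspb1, the cyclic AMP response element TGACGTCA in Dusp1, and the CArG box bound by serum response factor in Egr2.
Hspa1a, chr17:34972157-34972356, minus strand: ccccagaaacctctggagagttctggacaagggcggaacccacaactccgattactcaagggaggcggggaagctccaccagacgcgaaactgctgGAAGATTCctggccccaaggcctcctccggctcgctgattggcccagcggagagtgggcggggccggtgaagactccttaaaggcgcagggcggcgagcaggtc
Hspa1b, chr17:34959239-34959438, minus strand: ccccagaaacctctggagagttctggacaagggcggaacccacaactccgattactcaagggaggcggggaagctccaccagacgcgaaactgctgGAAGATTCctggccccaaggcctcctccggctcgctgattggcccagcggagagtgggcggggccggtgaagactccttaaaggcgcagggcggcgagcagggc
Hspb1, chr5:135887719-135887918, plus strand: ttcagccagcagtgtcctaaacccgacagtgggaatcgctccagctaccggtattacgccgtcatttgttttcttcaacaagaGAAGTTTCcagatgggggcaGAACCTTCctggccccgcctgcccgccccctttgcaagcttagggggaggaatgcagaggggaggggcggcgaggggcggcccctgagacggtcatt
Dusp1, chr17:26508473-26508672, minus strand: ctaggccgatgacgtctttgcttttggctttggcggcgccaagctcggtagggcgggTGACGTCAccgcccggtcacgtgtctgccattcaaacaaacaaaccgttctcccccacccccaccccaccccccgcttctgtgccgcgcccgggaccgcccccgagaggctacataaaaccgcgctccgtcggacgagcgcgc
Egr2, chr10:67537669-67537868, plus strand: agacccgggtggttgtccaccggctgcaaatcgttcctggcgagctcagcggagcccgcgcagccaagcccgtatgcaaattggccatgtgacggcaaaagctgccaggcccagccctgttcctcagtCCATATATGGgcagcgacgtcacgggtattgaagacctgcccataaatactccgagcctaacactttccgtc

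The Hspa1a and Hspa1b stretches differed at 1 of 200 positions. The 2 genes are near-identical copies of the inducible HSP70 gene, so signal may be shared between their probe sets and their values are best read together. Searched on both strands over the full windows, GAANNTTC was present in 4 of the 5 heat shock genes with a window. It began 104 bases before the start in Hspa1a and in Hspa1b, and 117 and 97 bases before it in Hspb1. Hsph1, an HSP110 that exchanges nucleotide on HSP70, carried it after its start, and Dnajb1, an HSP40 co-chaperone, had no match in its window. Among the 24 other members with a window it was found in Jun alone, 128 bases before the start, against 7.86% of all 32851 promoter windows of the same length. TGACGTCA lay 143 bases before the start in Dusp1, 166 in Btg2 and 12 in Ppp1r15a, and 1.79% of all windows held it. A CArG box was found in Egr2, Dusp5 and Zfp36, and in 1.63% of all windows. The EGR site GCGGGGGCG was found in 6 members (Fosb, Nr4a1, Dusp2, Zfp36, Klf2 and Klf4) and in 2.91% of all windows, and matches of different motifs did not overlap. The AP-1 site TGACTCA was found in 0 of the members' windows and in 5.2% of all windows. A match in these letters is a description of the sequence and not a measured binding site.

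Signals were MAS5 intensities scaled to a target of 100 per array. The median signal per array was 13.5 to 20.8, and 49.1% to 58.3% of probe sets lay below 20, which was used as a floor before taking log2. Replicate arrays correlated at 0.934 to 0.987 over all genes tested. The ratio of 3′ to 5′ signal of the Gapdh control, a sign of RNA integrity, was 23.9 and 11.2 on the NK cell arrays and 3.46 to 6.3 on all others. B cell replicate 1 had a Jchain signal, a plasma cell marker, of 7866 against 92.1 and 332 in replicates 2 and 3. It also had an S100a8 signal, a neutrophil marker, of 438 against 27.2 and 128. Xist and Eif2s3y went against the labelled sex on 3 of the 5 arrays for which a sex was given, namely B cell replicate 2 and both CD8 T cell arrays. On all 6 DC arrays Xist was at 1539 to 4503, whereas on 6 of the 7 lymphocyte arrays it was at 1.05 or less and Eif2s3y, which is Y-linked, was at 346 to 968. The sex of the mice thus moved with the comparison of DC and lymphocytes on every array but B cell replicate 2 (Xist 4272), and its part in the results was not tested. All DC arrays were scanned in a period of their own, so that scan period and the difference between DC and lymphocytes cannot be told apart.

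Signals of the members varied between populations and between single arrays. Of the 36 members, 22 had their highest signal on a cDC array, 3 on a pDC array and 11 on a lymphocyte array. The split of all genes tested by highest array is not given here, so these counts have no background. On at least 1 array, 12 members fell below the floor. In the F test for any difference among the 6 populations (limma, Benjamini-Hochberg adjusted p under 0.05), 29 of 36 members were called, against 82.8% of all genes tested. The members were thus called no more often than genes at large. The 7 members not called were Fos, Jund, Ppp1r15a, Klf6, Rhob, Dnajb1 and Hspa8, with adjusted p of 0.0563 to 0.155. All of these but Hspa8 were more than 1 higher on the log2 scale in B cell replicate 1 than in the mean of B cell replicates 2 and 3, as described below.

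**Figure D1:**
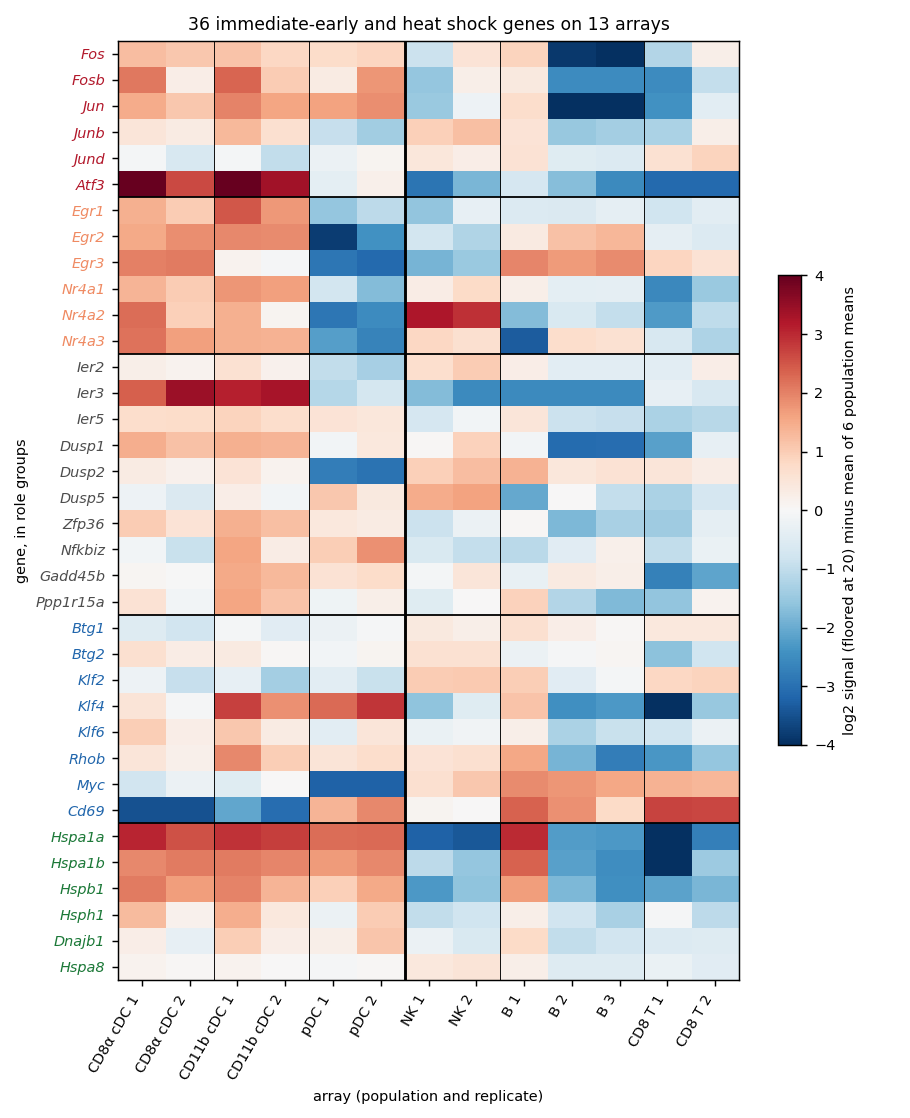
The heat map shows, for each of the 36 members (rows, by role) and each of the 13 arrays (columns), the log2 signal minus the mean of the 6 population means. Most heat shock genes were high on the 6 DC arrays and on B cell replicate 1. Most AP-1 genes were too, except on pDC replicate 1, where their median was 0.04. Most EGR and NR4A genes were low on both pDC arrays.

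The first comparison asked which members distinguished the 6 DC arrays from the 7 lymphocyte arrays. The heat shock genes other than Hspa8, the AP-1 genes Fos, Fosb, Jun and Atf3, and also Ier3 and Klf4 were higher in DC, whereas Jund, Myc, Cd69, Klf2 and Dusp2 were lower. In the limma fit, 22 of 36 members were higher and 7 were lower, against 31.3% and 32.3% of all genes tested. The median difference was 1.09 on the log2 scale over the members and -0.02 over all genes. In bulk samples of sorted cells, fewer cells that express a gene and less RNA per cell cannot be told apart.

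Among the 6 heat shock members, 5 were higher in DC and 0 were lower, with a median log2 difference of 2.28. Hspa1a signals were 3922 at the lowest, 5292 at the median and 6824 at the highest in DC, against 8.22, 125 and 6509.7 in lymphocytes. Hspa1b signals were 6246, 7459.5 and 8263 in DC, against 28.5, 663 and 9956 in lymphocytes. The only lymphocyte array within or above the DC range for these copies of HSP70 was B cell replicate 1. The log2 difference was 5.26 ± 0.81 (SE) for Hspa1a (adjusted p = 0.000212, 38.2-fold) and 3.89 ± 0.88 for Hspa1b (adjusted p = 0.0027, 14.9-fold). Hspb1, the small heat shock protein HSP27, had 209.9, 331 and 463 in DC, against 19.5, 31.1 and 351 in lymphocytes. Its log2 difference was 3.19 ± 0.57 (adjusted p = 0.00058), and again B cell replicate 1 alone overlapped with DC. Hsph1 was higher by 1.36 ± 0.34 (adjusted p = 0.00462) and Dnajb1 by 0.85 ± 0.29 (adjusted p = 0.0268). The Dnajb1 call was lost with any of 7 arrays left out (adjusted p up to 0.0937, without pDC replicate 2). Hspa8, the constitutive member of the HSP70 family, ranged over 8462 to 9743 in DC and 6119.9 to 12374 in lymphocytes and did not pass the test (0.12 ± 0.13, adjusted p = 0.457). It passed under quantile normalization (0.29, adjusted p = 0.0409), under invariant-rank normalization (0.32, adjusted p = 0.0351) and with all its probe sets averaged (0.95, adjusted p = 0.0187). The highest Hspa8 signals were those of the NK cell arrays, where Hspa1a was at 88.2 and 78.8.

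AP-1 is a dimer of Fos, Jun and ATF family proteins, and 4 of its 6 members were higher in DC. Atf3, a stress-induced ATF factor, had signals of 133, 1417 and 3729 in DC (lowest, median and highest), against 7.41, 29.3 and 108 in lymphocytes. No lymphocyte array reached the lowest DC array, and the log2 difference was 4.75 ± 0.35 (adjusted p = 7.31e-07, 26.8-fold). Jun had 3379, 4755 and 6256 in DC, against 89.1, 570.4 and 2567 in lymphocytes, with a difference of 3.20 ± 0.75 (adjusted p = 0.0034). Jun arrays did not overlap between DC and lymphocytes either. Fosb was higher by 2.61 ± 0.60 (adjusted p = 0.00313). Fos had 5914, 6936 and 8338 in DC, against 217, 1927 and 6595 in lymphocytes, with a difference of 1.96 ± 0.73 (adjusted p = 0.0359). The Fos signal varied by less than a factor of 2 among DC arrays and over a much wider range among lymphocytes, and its call was kept under 8 of 25 alternative settings. Leaving out 1 array ended the Fos call for 11 of 13 arrays, with differences of 1.68 to 2.50 and adjusted p of up to 0.117. Jund, which is present in resting cells, was lower in DC by 0.64 on the log2 scale (SE 0.22, adjusted p = 0.0282, but 0.0958 without CD11b cDC replicate 2), and Junb differed by 0.15 ± 0.36 (adjusted p = 0.73).

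**Figure D2:**
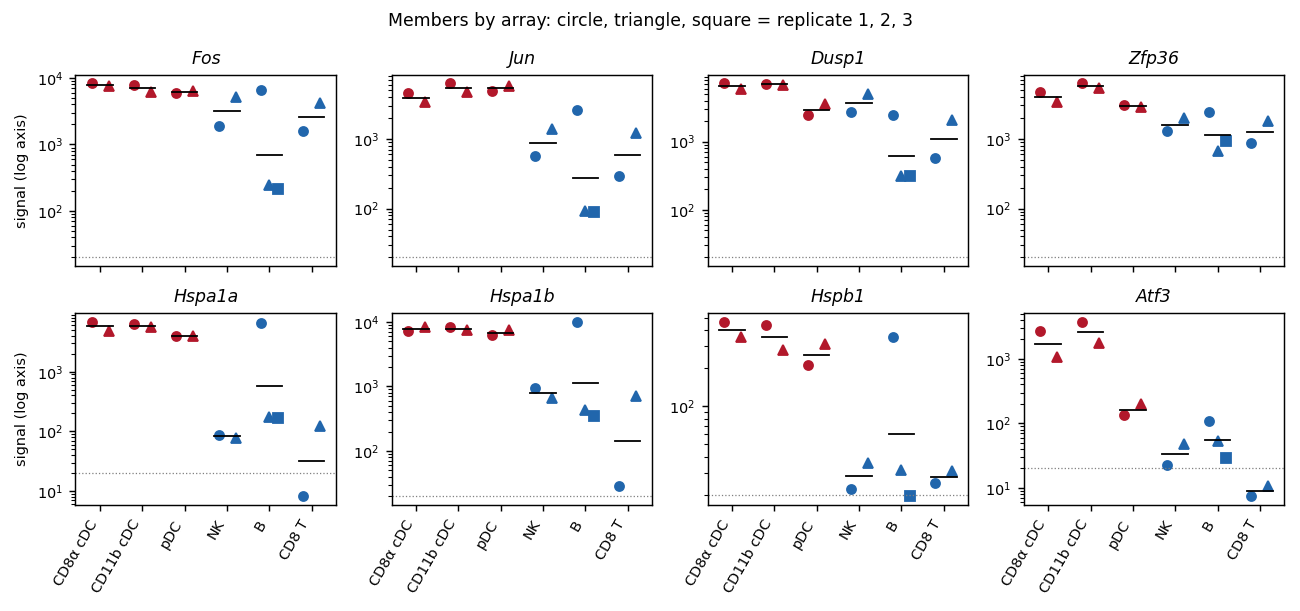
Signals of selected members called higher in DC (red) than in lymphocytes (blue) are plotted for each array on a log axis. Symbols stand for replicates (circle 1, triangle 2, square 3), a bar marks the geometric mean and a dotted line the floor of 20. Of the genes plotted, only Jun, Atf3 and Zfp36 had no overlap between DC and lymphocyte arrays. For the heat shock genes and Fos, B cell replicate 1 lay at the level of the DC arrays and B cell replicates 2 and 3 far below.

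In the EGR and NR4A families, transcription factors induced by receptor signalling in lymphocytes and myeloid cells, 2 members were higher in DC and 1 was lower. Egr1 was higher by 1.37 ± 0.21 (adjusted p = 0.000237) and Nr4a1 (Nur77) by 1.10 ± 0.23 (adjusted p = 0.00154). Egr3 was lower in DC by 0.61 (SE 0.11, adjusted p = 0.000484). DC were not uniform for these genes, with pDC far below cDC as given below.

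Of the 10 feedback and early response members, 7 were higher in DC and 1 was lower. Ier3, a stress-induced regulator of survival, had 52.9, 807 and 1266 in DC (lowest, median and highest), against 4.32, 18.7 and 93.3 in lymphocytes, with a difference of 3.46 ± 0.19 (adjusted p = 6.81e-08, 11.0-fold). Dusp1, a nuclear phosphatase of p38 and JNK, had 2433, 6341 and 7172 in DC, against 313, 2084 and 4989.7 in lymphocytes (1.90 ± 0.50, adjusted p = 0.00651). Zfp36 had 2893, 4004 and 6230.5 in DC, against 667, 1274 and 2413 in lymphocytes, without overlap (1.64 ± 0.30, adjusted p = 0.000634). Ier5, known in other systems as a partner of heat shock factor 1, was higher by 1.35 ± 0.22 (adjusted p = 0.000328), and Gadd45b, a stress sensor, by 1.40 ± 0.16 (adjusted p = 1.73e-05). Nfkbiz, the nuclear regulator IκBζ, was higher by 1.24 ± 0.29 (adjusted p = 0.00365). Ppp1r15a, which restores translation after stress, was higher by 1.08 ± 0.43 (adjusted p = 0.0463), a call kept under 6 of 25 alternative settings and lost with 11 of 13 arrays left out in turn (adjusted p up to 0.154). Dusp2, another nuclear MAP kinase phosphatase, ran the other way and was 2.86-fold lower in DC (-1.52 ± 0.16, adjusted p = 1.35e-05). Both pDC arrays carried the lowest Dusp2 signals of all, at 97.3 and 85.2.

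The remaining 8 members, regulators of quiescence and proliferation with Rhob and Cd69, were split, with 4 higher and 4 lower in DC. Klf4, a factor of myeloid differentiation, had 355, 1534 and 2656 in DC (lowest, median and highest), against 16.8, 118 and 801 in lymphocytes (3.40 ± 0.63, adjusted p = 0.000775). Klf6 (0.91 ± 0.27, adjusted p = 0.0139), Rhob (1.59 ± 0.58, adjusted p = 0.0331) and Btg2 (0.45 ± 0.15, adjusted p = 0.0202) were also higher, but these calls were kept under 17, 11 and 19 of 25 alternatives. With 1 array left out, adjusted p rose to as much as 0.0555 for Klf6, 0.0975 for Rhob and 0.062 for Btg2, the first without pDC replicate 2 and the others without CD11b cDC replicate 1. Myc, which drives cell growth, had 4.56, 122 and 190.1 in DC, against 295, 493 and 696 in lymphocytes, without overlap (-2.65 ± 0.14, adjusted p = 3.9e-08, 6.26-fold lower). Cd69, an early activation antigen that holds the egress receptor S1pr1 inside the cell, was 7.67-fold lower in DC (-2.94 ± 0.25, adjusted p = 2.36e-06), although pDC carried 578 and 853. Klf2, which maintains naive lymphocyte quiescence and trafficking, was 2.57-fold lower (-1.36 ± 0.26, adjusted p = 0.000842). Btg1, an antiproliferative factor, had 2553 to 4157 in DC, against 4522 to 6738 in lymphocytes, without overlap (-0.71 ± 0.12, adjusted p = 0.000438). When all its probe sets were averaged the Btg1 difference was -0.32 (adjusted p = 0.0711).

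Signals of DC and lymphocyte arrays did not overlap for 5 members (Jun, Atf3, Zfp36, Btg1 and Myc), against 11.4% of all genes tested. With B cell replicate 1 left out, 12 members were separated, against 13.9% of all genes, the additional ones being Fos, Fosb, Ier5, Klf4, Hspa1a, Hspa1b and Hspb1. The DC to lymphocyte differences without that array were 2.50 for Fos (adjusted p = 1.95e-05), 3.73 for Jun (adjusted p = 3.69e-06) and 5.84 for Hspa1a (adjusted p = 2.25e-07). The sample names fall into 2 sets, with all DC and NK cell arrays and B cell replicate 1 in one and B cell replicates 2 and 3 and the CD8 T cell arrays in the other. With a term for the name set, 13 of the 29 calls were lost, including those of Jun, Dusp1, Zfp36, Klf4, Hspa1b and Hsph1, and the sign turned for Fos (-0.73, adjusted p = 0.176), Rhob (-0.55), Ppp1r15a (-0.24) and Dnajb1 (-0.071). Atf3, Egr1, Ier3, Ier5, Nfkbiz, Gadd45b, Myc, Cd69, Klf2, Dusp2, Egr3, Hspa1a and Hspb1 kept their calls under all 25 alternatives.

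**Figure D3:**
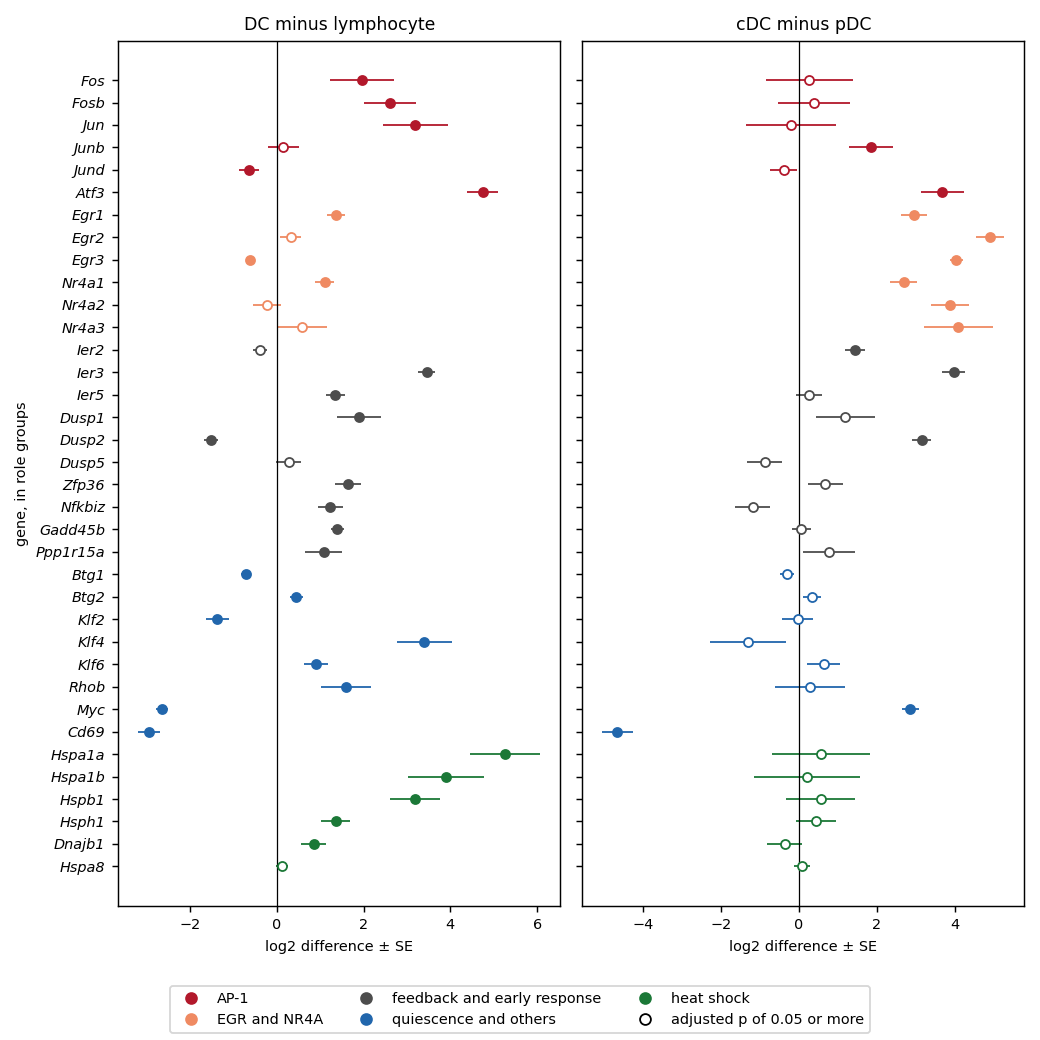
Log2 differences (x axis, bars SE) are shown for the 36 members, coloured by role, for DC minus lymphocytes (left) and cDC minus pDC (right), with filled symbols for adjusted p under 0.05. Filled heat shock symbols, 5 in number, stood between DC and lymphocytes, and all 6 EGR and NR4A members were filled and positive in cDC against pDC.

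Replicates of 1 population were next set against each other, as a description without a test. B cell replicate 1 stood far above replicates 2 and 3. It was higher than both for 27 of 36 members and was the highest of all 7 lymphocyte arrays for 19. Over the members, the median log2 difference of replicate 1 from the mean of the other two was 1.17, against 0.03 over all genes tested, and 55.6% of members exceeded 1, against 6.98% of all genes. Hspa1a had 6509.7 in B cell replicate 1, against 177 and 169.7 in replicates 2 and 3, a difference of 5.23 (37.6-fold). Fos had 6595 in replicate 1, against 244 and 217 in replicates 2 and 3 (28.7-fold), and Jun had 2567 against 92.3 and 89.1 (28.3-fold). Rhob, a small GTPase of the immediate-early class, had 929 against 88.4 and 47.3, and Klf4 had 801 against 66.8 and 74.5. All 6 heat shock members were higher in replicate 1, with a median of 2.73.

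Not every immediate-early gene followed this order. Nr4a3 was at 3.45 in B cell replicate 1, against 329 and 306 in replicates 2 and 3, which was the most negative difference of any gene tested (-3.99). Dusp5, a nuclear ERK phosphatase, was at 60.8 against 251 and 129. Egr1 hardly differed, at 899 in replicate 1 and 876 and 1023 in replicates 2 and 3, and Egr2 was lower at 355 against 631 and 702. Replicates 2 and 3, which differed in Xist and Eif2s3y, were close to each other over the set (median difference 0.02), and Cd69 (803 and 385) was the only member more than 1 apart. Replicate 1 belonged to another set of sample names (described above), pooled more mice and was not labelled follicular. Its RNA input was 100 ng, against 50 ng for replicates 2 and 3, and it was run on another chip lot. Replicate 1 also had the higher Jchain and S100a8 signals given above, but a lower Sdc1 signal. The part of each in these differences was not tested.

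CD8 T cell replicate 2 was above replicate 1 for 26 of 36 members. Over the members the median difference was 0.59, and 33.3% exceeded 1, against 0.864% of all genes tested. Hspa1b had 706 in replicate 2 and 28.5 in replicate 1, a difference of 4.63 that was the largest of the 9380 genes. Klf4 had 128 and 16.8, Hspa1a 125 and 8.22, Jun 1197 and 294, and Dusp1 2084 and 584 in replicates 2 and 1. Among heat shock members only Hspa1a and Hspa1b exceeded 1, and the median over the 6 was 0.18. Hsph1 was more than 1 lower, at 684 in replicate 2 and 1379 in replicate 1. Both arrays were scanned on the same day with the same chip lot.

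Smaller shifts were seen in the other populations. NK cell replicate 2 exceeded replicate 1 by more than 1 for 6 members (16.7%, against 1.9% of all genes), namely Fos (5198 and 1927), Fosb, Jun, Atf3, Egr1 and Klf4, while heat shock members differed little (median -0.04). CD11b cDC replicate 1 was above replicate 2 for 34 of 36 members (median 0.42) and CD8α cDC replicate 1 above replicate 2 for 29 (median 0.37), against medians of -0.03 and 0.00 over all genes. Differences above 1 were seen for 16.7% of members in CD11b cDC and 11.1% in CD8α cDC, against 0.682% and 0.842% of all genes. In pDC the order was the other way, with replicate 1 above replicate 2 for 10 members (median -0.24). There 8.33% of members lay below -1, against 0.928% of all genes. The widest replicate difference of a member within DC was 1.82 (Fosb in CD8α cDC), and among lymphocytes it was 5.23 (Hspa1a in B cells).

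**Figure D4:**
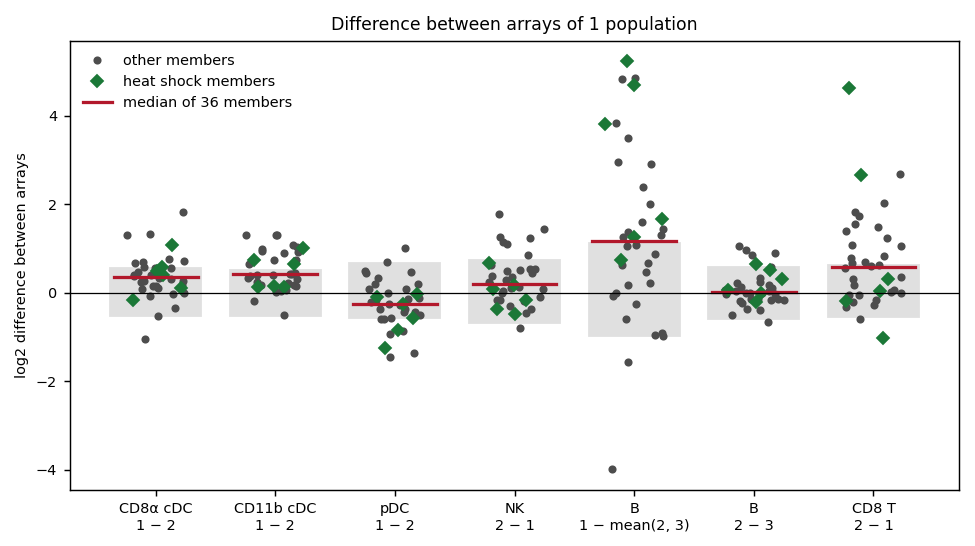
Each point is the log2 difference of 1 member between replicate arrays of a population, with heat shock members marked, a red line at the median of the 36 members and a grey box from the 5th to the 95th percentile of all 9380 genes tested. Members spread far above the box in B cell replicate 1 and in CD8 T cell replicate 2. In the 3 DC populations members also lay outside it, but less far, with a widest difference of 1.82 (Fosb in CD8α cDC).

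The comparison of the 4 cDC arrays with the 2 pDC arrays gave a different picture. The EGR and NR4A families were higher in cDC as a whole, whereas none of the heat shock members passed the test. In limma, 12 of 36 members were higher in cDC and 1 was lower, against 19.1% and 17.7% of all genes tested, and the median difference was 0.50 over the members and 0.00 over all genes. All 6 EGR and NR4A members were higher, with a median of 3.96. Summed signals of 9 macrophage and monocyte markers were 1623 to 1705 in CD8α cDC and 6714 to 7960.3 in CD11b cDC, against 981 to 984 in pDC. In pDC 3 of the 9 lay below 20, as did 3 in CD8α cDC. Lyz2 made up most of the CD8α cDC sum (1029 and 1045, against 181 and 89.4 in pDC). Csf1r was lower in CD8α cDC (247 and 349) than in pDC (563 and 727), as was Cd14 (50.8 and 34.9, against 149 and 79.3). The part of these markers in the differences between cDC and pDC was not tested. For 18 members the arrays of cDC and pDC did not overlap, against 47.3% of all genes tested.

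Egr2, which carries the CArG box shown above, had 796 and 1006 in CD8α cDC and 1066 and 1029 in CD11b cDC, against 18.4 and 51.5 in pDC (4.91 ± 0.36, adjusted p = 1.54e-06, 30.2-fold). Egr1 had 3482 and 2647 in CD8α cDC and 7349 and 4369 in CD11b cDC, against 449 and 631 in pDC (2.96 ± 0.33, adjusted p = 3.82e-05). Egr3 had 691 and 728 in CD8α cDC and 188 and 167 in CD11b cDC, against 23.1 and 19.0 in pDC (4.04 ± 0.16, adjusted p = 1.33e-08). The 3 EGR factors were thus lowest or among the lowest of all populations in pDC, and for Egr2 and Egr3 both pDC arrays lay below every other array. Nr4a1 had 2721 and 2145 in CD8α cDC and 3616 and 3269 in CD11b cDC, against 633 and 314 in pDC (2.69 ± 0.35, adjusted p = 0.000118). Nr4a2 was higher by 3.88 ± 0.49 (adjusted p = 9.92e-05). Nr4a3 had 914 and 623 in CD8α cDC and 541 and 530.5 in CD11b cDC, against 43.6 and 31.7 in pDC (4.10 ± 0.89, adjusted p = 0.00411). Nr4a3 lost its call without the floor (4.10, adjusted p = 0.0721) and without pDC replicate 2 (3.87, adjusted p = 0.0582).

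Outside these families, Ier3 had 611 and 1266 in CD8α cDC and 1003 and 1148 in CD11b cDC, against 52.9 and 72.0 in pDC (3.98 ± 0.30, adjusted p = 1.58e-06). Dusp2 had 721 to 972 in cDC, against 97.3 and 85.2 in pDC (3.15 ± 0.25, adjusted p = 2.78e-06). Atf3 had 1076 to 3729 in cDC, against 133 and 199 in pDC (3.69 ± 0.55, adjusted p = 0.000305), so that the Atf3 signal of DC described above was mainly that of cDC. Ier2 (1.45 ± 0.26, adjusted p = 0.00111) and Junb (1.85 ± 0.55, adjusted p = 0.023) were higher too, and the Junb call was lost under 7 of 26 alternatives, with an adjusted p of 0.178 without pDC replicate 2. Myc had 111 to 190.1 in cDC, against 4.56 and 13.4 in pDC. Both pDC arrays lay below the floor, so the difference was at least 7.29-fold (adjusted p = 1.43e-06). Cd69 was the only member lower in cDC, with 13.2 and 15.6 in CD8α cDC and 53.9 and 27.2 in CD11b cDC, against 578 and 853 in pDC (-4.67 ± 0.39, adjusted p = 4.01e-06, 25.4-fold lower).

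Fos (0.27 ± 1.13, adjusted p = 0.892), Jun (-0.20 ± 1.15, adjusted p = 0.926) and Hspa1a (0.57 ± 1.25, adjusted p = 0.769) did not pass the test between cDC and pDC. For the 6 heat shock members, 0 were called by limma and 0 had an unadjusted p under 0.05. The shared spread of the fit includes the B and CD8 T cell replicates, and the SE of these genes was wide. Array by array, Hspa1a had 4888 to 6824 in cDC, against 3922 and 3968 in pDC, without overlap, and Hspa1b had 7331 to 8263 in cDC, against 6246 and 7389 in pDC. Fos had 6214 to 8338 in cDC, against 5914 and 6406 in pDC.

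**Figure D5:**
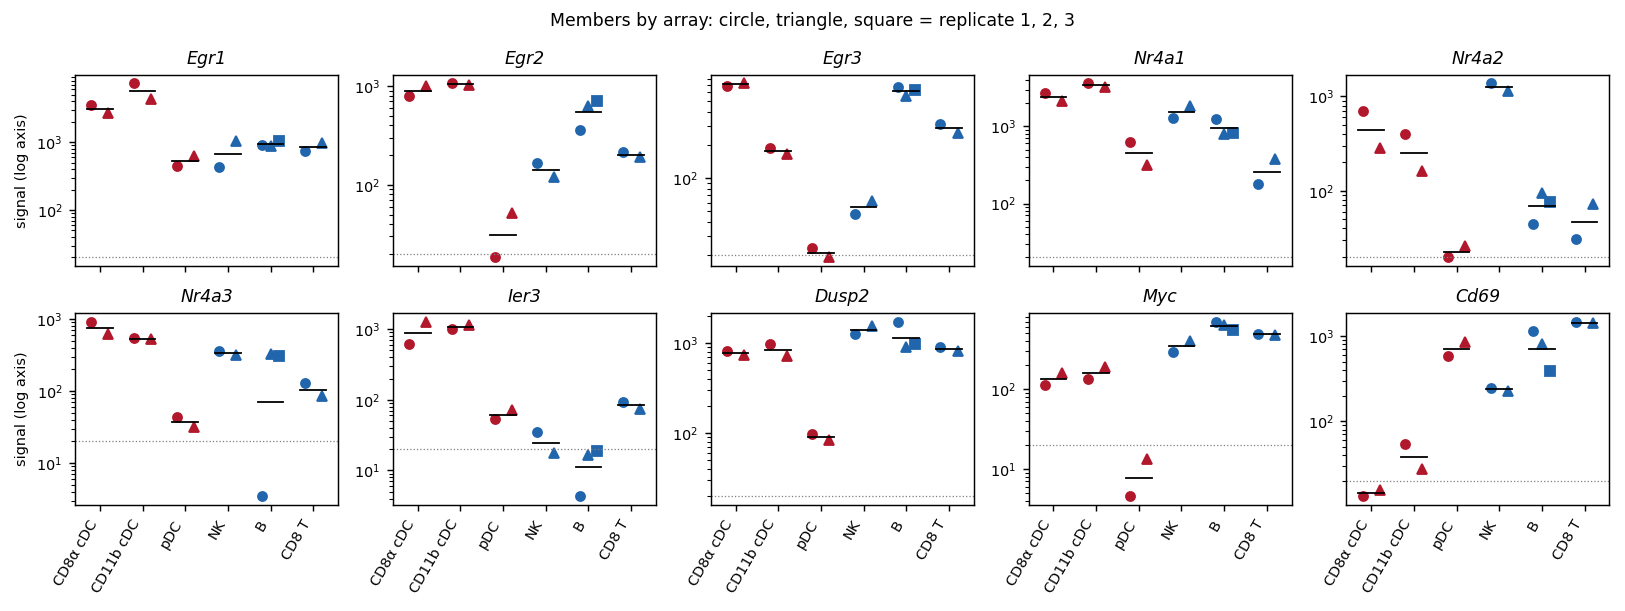
Signals of members that separated cDC from pDC are plotted for each array on a log axis, with the same colours, symbols, bars and floor line as in the plot of DC against lymphocytes. EGR and NR4A genes, Ier3 and Dusp2 were low on both pDC arrays, and Cd69 was low on the 4 cDC arrays.

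Between CD8α cDC and CD11b cDC, 1 member was higher and 1 was lower, against 8.96% and 10.6% of all genes tested, and the median over the members was -0.24. Egr3 had 691 and 728 in CD8α cDC, against 188 and 167 in CD11b cDC (2.00 ± 0.19, adjusted p = 2.03e-05), a difference that held under all 26 alternatives. Gadd45b had 540.5 and 509 in CD8α cDC, against 1463 and 1265 in CD11b cDC (-1.38 ± 0.28, adjusted p = 0.00485). Without CD11b cDC replicate 1, which was scanned on a day of its own, the Gadd45b difference was -1.27 and no longer passed (adjusted p = 0.0514). Nfkbiz had 836 and 489 in CD8α cDC, against 2686 and 1095 in CD11b cDC, and did not pass (-1.42 ± 0.52, adjusted p = 0.0853). It passed with all its probe sets averaged (-1.49, adjusted p = 0.00325) and with the term for the name set (adjusted p = 0.0494). Klf4 had 527 and 355 in CD8α cDC, against 2439.8 and 1298 in CD11b cDC, and did not pass either (-2.04 ± 1.13, adjusted p = 0.255). The summed macrophage and monocyte markers given above were higher in CD11b cDC, where 0 of the 9 lay below 20. Vcam1 alone among them ran the other way, with 170 and 171 in CD8α cDC, against 75.9 and 84.2 in CD11b cDC. The part of these markers in the differences was not tested.

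Among lymphocytes, NK cells were set against the mean of B and CD8 T cells. NK cells had more Nr4a1, Nr4a2, Dusp5 and Btg2, and less Egr3 and Cd69. In limma 9 members were higher and 4 were lower, against 22.6% and 18.6% of all genes tested, with a median of 0.48 over the members. Nr4a2 had 1377 and 1127 in NK cells, against 44.3, 95.7 and 76.5 in B cells and 30.6 and 72.5 in CD8 T cells (4.45 ± 0.48, adjusted p = 3.72e-05, 21.9-fold). These were the highest Nr4a2 signals of all 13 arrays. Dusp5 had 705 and 759.6 in NK cells, against 60.8 to 251 in B cells and 103 and 157 in CD8 T cells (2.54 ± 0.44, adjusted p = 0.00101). Nr4a1 had 1294 and 1811 in NK cells, against 807 to 1255 in B cells and 179 and 377 in CD8 T cells (1.63 ± 0.34, adjusted p = 0.00316). Btg2 was also higher (1.26 ± 0.22, adjusted p = 0.00109). Gadd45b had 491 and 710.2 in NK cells, against 419, 664 and 603 in B cells and 77.9 and 119.7 in CD8 T cells (1.36 ± 0.23, adjusted p = 0.000969). NK and B cell arrays thus overlapped for Gadd45b, and CD8 T cells were below both.

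Egr3 had 47.6 and 61.8 in NK cells, against 563 to 671 in B cells and 313 and 259 in CD8 T cells (-2.95 ± 0.16, adjusted p = 1.63e-07, 7.75-fold lower). Cd69 had 244 and 229 in NK cells, against 385 to 1154 in B cells and 1470.2 and 1425 in CD8 T cells (-2.10 ± 0.38, adjusted p = 0.00133). Egr2 (-1.22 ± 0.35, adjusted p = 0.0183) and Myc (-0.68 ± 0.20, adjusted p = 0.0216) were lower as well. The 4 members lower in NK cells thus included a pair of EGR factors. Hspa8 was higher in NK cells by 0.78 ± 0.20 (adjusted p = 0.00978), with 11698 and 12374 in NK cells. This call was lost with all its probe sets averaged (0.46, adjusted p = 0.453), under quantile normalization (0.35, adjusted p = 0.11) and under invariant-rank normalization (0.39, adjusted p = 0.101). Junb, Ier2 and Dusp1 were higher with adjusted p of 0.0258, 0.00939 and 0.0388. The Dusp1 call was kept under 6 of 25 alternatives. Without NK cell replicate 2 the calls of Junb, Egr2, Nr4a1, Ier2, Dusp1 and Hspa8 were lost, with adjusted p of 0.0543 (Nr4a1) to 0.256 (Dusp1), and without NK cell replicate 1 Myc had an adjusted p of 0.208. All 13 calls kept their direction when only the NK cell arrays and the B cell replicates scanned on the same day were compared, but the Gadd45b difference there was 0.16. These arrays are among those that gave the calls, and CD8 T cells were left out, so this is not an independent check. With either NK cell array left out 8 members were called, and with B cell replicate 1 left out 19. The shares of all genes called in those fits are not given here, so the counts cannot be set against a background. With the term for the name set 7 of the 13 calls were lost. The ratio of 3′ to 5′ Gapdh signal was highest on both NK cell arrays, and its part in these differences was not tested.

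B cells differed from CD8 T cells in 6 members, 5 higher and 1 lower, against 18.0% and 16.9% of all genes tested. Gadd45b had 419, 664 and 603 in B cells, against 77.9 and 119.7 in CD8 T cells (2.51 ± 0.25, adjusted p = 2.28e-05, 5.71-fold). Nr4a1 had 1255, 807 and 826 in B cells, against 179 and 377 in CD8 T cells (1.86 ± 0.37, adjusted p = 0.0028). Egr3 had 671, 563 and 637 in B cells, against 313 and 259 in CD8 T cells (1.13 ± 0.17, adjusted p = 0.000502), and these 3 genes kept their calls under all 26 alternatives. Egr2 (1.41 ± 0.38, adjusted p = 0.0153) and Btg2 (1.16 ± 0.24, adjusted p = 0.00359) were higher as well. Egr2 fell short of the threshold without CD8 T cell replicate 2 (adjusted p = 0.104) and with all its probe sets averaged (0.25, adjusted p = 0.685). Ier3 was below the floor on all 3 B cell arrays (4.32, 16.7 and 18.7), against 93.3 and 74.8 in CD8 T cells, and was at least 4.18-fold lower in B cells (adjusted p = 0.000475).

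Of the AP-1 and heat shock members, 0 were called by limma between B and CD8 T cells, with 2 and 1 at an unadjusted p under 0.05. This rested on which B cell array was used. Without B cell replicate 1, 14 members were called, and the share of all genes called in that fit is not given here. Fos was then 3.48 lower and Jun 2.71 lower in B cells on the log2 scale (differences of -3.48 and -2.71, adjusted p = 0.000237 and 0.00358). Hspa1a was at 1.79 (adjusted p = 0.0401). Set against CD8 T cells, B cell replicate 1 alone differed by 7.02 for Hspa1a, 3.65 for Hspb1 and 3.48 for Rhob. Nr4a3 was at 1.59 without replicate 1 (adjusted p = 0.00058), and replicate 1 alone, which lay below the floor, differed by -2.39. The values of replicate 1 alone are those of 1 array and are given without a test.

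Further genes of the same pathways were read from fixed lists, with the share of all genes tested beside each count. Of 37 other immediate-early and delayed-early genes tested, 14 (37.8%) were higher and 11 (29.7%) were lower in DC than in lymphocytes, close to the 31.3% and 32.3% of all genes. The largest log2 differences were those of the cytokine genes Il1b (4.52) and Tnf (3.29), and of Klf9 (-1.98) and the cytokine signalling inhibitor Socs3 (-1.77) in the other direction. In cDC against pDC, 12 (32.4%, against 19.1% of all genes) were higher, with Il1b at 4.65 and Errfi1 at 3.97, and 9 (24.3%, against 17.7%) were lower, with Socs3 at -2.44 and Trib1 at -2.25. In CD8α cDC against CD11b cDC 3 (8.11%, against 8.96%) were higher and 10 (27.0%, against 10.6%) were lower, with a median of -0.88 over the 37 genes. Ptgs2 (cyclooxygenase-2) had 25.3 and 42.7 in CD8α cDC, against 1466 and 986.6 in CD11b cDC (-5.19, adjusted p = 1.23e-06), and Bhlhe40 differed by -3.58. The summed macrophage and monocyte markers given above moved the same way as these 2 genes, and their part was not tested. In NK cells against B and CD8 T cells 16 (43.2%, against 22.6%) were higher and 2 (5.41%, against 18.6%) were lower, led by the chemokine genes Ccl3 (6.32) and Ccl4 (3.94). In B against CD8 T cells 10 (27.0%, against 18.0%) were higher and 7 (18.9%, against 16.9%) were lower, with Dusp4 at 4.01 and Socs3 at -2.69.

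Of 19 other heat shock factor targets and chaperones tested, 8 (42.1%, against 31.3% of all genes) were higher and 2 (10.5%, against 32.3%) were lower in DC than in lymphocytes, with a median of 0.20. Bag3, an HSP70 co-chaperone, was higher by 1.30 (adjusted p = 0.000588), and Serpinh1, a collagen chaperone, by 1.09, through pDC alone (213 and 178). B cell replicate 1, which had the highest Hspa1b signal of all arrays, had a Bag3 signal of 3.68, against 3.25 and 16.0 in B cell replicates 2 and 3. Of the 19 genes, 5 (26.3%, against 19.1% of all genes) were higher and 2 (10.5%, against 17.7%) were lower in cDC than in pDC. Between CD8α cDC and CD11b cDC, 2 (10.5%, against 8.96%) were higher and 1 (5.26%, against 10.6%) was lower. In NK cells against B and CD8 T cells, 1 (5.26%, against 22.6%) was higher and 6 (31.6%, against 18.6%) were lower. Between B and CD8 T cells, 1 (5.26%, against 18.0%) was higher and 0 were lower (against 16.9%). Of 9 upstream kinases and factors tested, 3 (33.3%, against 31.3%) were higher in DC, with the p38 kinase gene Mapk14 at 1.40 and its target Mapkapk2 at 1.22, and 4 (44.4%, against 32.3%) were lower, with the serum response factor partners Elk4 at -1.59 and Elk3 at -0.81. S1pr1, a target of Klf2, was lower in DC by 3.95 on the log2 scale (adjusted p = 5.91e-09), and Itgb7 did not pass the test there. S1pr1 was also lower in NK cells than in B and CD8 T cells (-2.49, adjusted p = 1.56e-05). Klf2 was not lower in that comparison and did not pass the test (0.54, adjusted p = 0.294).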

How the data were processed

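RNA of sorted spleen populations was hybridised to Affymetrix 430 2.0 mouse arrays with 45101 probe sets. The deposited values were MAS5 signal intensities, which the authors scaled to a target of 100 per array. The platform annotation gave 1 gene for 34958 of them, more than 1 for 932 and no gene for 9211. Signals below 20 were set to 20 and log2 transformed, and a gene was tested where every array of some population reached a signal of 50. Populations were compared with limma 3.58.1 in R 4.3.3, on group means with 7 residual degrees of freedom, two-sided, with Benjamini-Hochberg adjustment over 9380 genes and a threshold of 0.05. The code was tested on simulated data. Fold changes are on the floored scale and understate those of low genes. The members and lists were chosen with earlier results of these data known, all members could be named, and of each list at most 2 called genes per direction were named by size. Array precision is limited by 2 or 3 arrays per population. The p-values rest on a spread between replicate arrays that is shared over all populations. That spread is not only one between sorts, because the B cell replicates also differed in name set, Xist signal and number of mice. Deviations of same-numbered replicates correlated at -0.20 to 0.18 between populations, and the main fit used no block. That check goes by replicate number only and cannot exclude a pairing by sort. Alternatives covered normalization, floor, filter, variance model, probe sets, scan day, name set, replicate block and each array left out.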

Additional observations from a re-analysis of the deposited data

How the results depend on the processing

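Over 180 pairs of member and comparison and 27 alternative settings, 4200 of 4608 values kept their direction and their side of the threshold, 150 lost a call, 76 gained one, 11 changed sign with a call under either setting, and 171 changed sign with no call under either. Calls kept under all alternatives were 13 of 29 between DC and lymphocytes, 11 of 13 between cDC and pDC, 1 of 2 between CD8α cDC and CD11b cDC, 6 of 13 between NK cells and B and CD8 T cells, and 3 of 6 between B and CD8 T cells. The F test called 17 members without the filter, when many more genes were tested, against 29 with it, and 22 to 36 with 1 array left out. Leaving out 1 array gave 23 to 29 members between DC and lymphocytes, 11 to 16 between cDC and pDC, 1 to 2 between CD8α cDC and CD11b cDC, 8 to 19 between NK cells and B and CD8 T cells, and 5 to 14 between B and CD8 T cells. With scan day as a fixed term 1 member was called between CD8α cDC and CD11b cDC. Between B and CD8 T cells, 14 members were called with the name set term and 14 without B cell replicates 2 and 3, a fit in which the 1 B cell array left is assumed to vary like the other groups.

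With the name set term 31 values changed sign, 21 of them with no call under either setting. Those with a call turned between DC and lymphocytes for Fos (-0.73), Junb (-0.96), Ppp1r15a (-0.24), Rhob (-0.55) and Dnajb1 (-0.071), and between NK cells and B and CD8 T cells for Fos (-2.80), Jun (-2.90), Ier5 (-0.73), Dusp1 (-0.31) and Dnajb1 (-1.36). That term is estimated from the B cell arrays alone. Without B cell replicates 2 and 3, a setting added after the data were seen, Nr4a3 turned to -2.39 between B and CD8 T cells. Other causes of lost calls were not tested. Counts of members called under alternative settings are given without the share of all genes called there, so they cannot be set against a background. With the replicate number as a block (replicate block), 27 members were called in the F test, 27 between DC and lymphocytes, 13 between cDC and pDC, 2 between CD8α cDC and CD11b cDC, 11 between NK cells and B and CD8 T cells and 8 between B and CD8 T cells. Signals of members below 20 have no order, and 2 or 3 arrays per population limit what small differences can be detected.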
